A study of Mus musculus with 1479 samples.

Results

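The retinoid synthesis, binding and response genes of the adult mouse urinary bladder were examined here cell by cell. The 9 genes were chosen by name, as rows of the deposited count table, and are 9 of its 46517 gene rows. Their Ensembl identifiers were matched to symbols with the GENCODE M21 annotation of GRCm38, and all 9 matched. Aldh1a1, Aldh1a2 and Aldh1a3 encode the retinaldehyde dehydrogenases that make retinoic acid. Rbp4 encodes the secreted carrier of retinol, and Crabp1 and Crabp2 encode cytoplasmic retinoic acid binding proteins. Rarb encodes a nuclear retinoic acid receptor, Dhrs3 a reductase that turns retinaldehyde back into retinol, and Cyp26b1 an enzyme that degrades retinoic acid.

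Retinol enters a cell, is oxidised to retinaldehyde by a reversible step and then to retinoic acid by an irreversible one. Retinoic acid binds nuclear receptors on DNA elements built of repeated half-sites, and genes for its own receptor, reductase and degrading enzyme are among its well-known targets. In developing organs retinoic acid made in stroma commonly acts on the epithelium next to it. In the bladder it is known as a regulator of the urothelium.

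The data were 1479 single-cell libraries from the dissociated bladders of male mice aged 10 to 20 weeks, with no treatment in any group. Each library was labelled with 1 of 5 mouse lines and 1 of 11 clusters. The lines were C57BL6 without a reporter (12.8% of the cells), PdgfrbGFP (54.8%), PdgfraGFP (9.94%), Cspg4dsRED (13.7%) and Acta2GFP (8.72%), whose reporters are driven by Pdgfrb, Pdgfra, Cspg4 or Acta2 sequences and mark different mixtures of fibroblasts and mural cells. The PdgfraGFP reporter is an insertion at the Pdgfra locus itself, and the others are transgenes. Per the study's methods, all were on the C57BL/6J background, strains were also combined, cells were enriched in the sort by PDGFRα or PDGFRβ staining or by the reporters, with CD31 positive cells left out, and elastase was added for Acta2GFP tissue. Neither the animals nor their number stand in the labels, so the line served as the unit of replication, and its own level was taken out in the fit. The p-values thus measure how far differences between clusters within a line varied over lines, which also differ in plate and sort. The clusters had been formed from the expression of the same cells, so the tests below describe how far a difference repeated over lines and are no independent proof that clusters differ.

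The cells held 50276 to 1446059 reads in total, spike-in reads included, with a median of 214893. The study placed cluster 10 as mural cells, cluster 5 as sub-epithelial fibroblasts and left cluster 4 undefined, and the others were fibroblasts. A level below is the number of reads of a gene among 500000 endogenous reads. It was taken per cell, the cells were averaged within each mouse line of at least 3 cells, and the line values are given with their mean ± SD. In cluster 10 (8.45% of the cells) 7 mural markers summed to 4334 to 6634 over the lines, and 7 fibroblast markers to 1333 at most. In cluster 5 (76 cells) the sub-epithelial markers Tnc, Bmp5, Bmp7 and Cxcl14 summed to 993 to 3018, and in the other fibroblast clusters (1278 cells) to 36.5 to 125.1. The fibroblast markers stood at 9226 to 14503 in cluster 5 and at 9686 to 13264 in the other fibroblast clusters, so the labels of these groups went with their markers. The study had named several of these markers from the same data, so this is no independent support of the labels. Cluster 4 (23 cells) was counted with the other fibroblast clusters. It held fibroblast markers at 6505 to 8732 and, in 1 of its 2 lines, mesothelial markers at 144.8, mainly Krt19, and leaving it out changed no count of called members below.

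The 3 synthesis genes were split between cell groups (plot of levels by cluster). Aldh1a2 was high in cluster 5, Aldh1a3 was low there and higher in most other fibroblast clusters, Aldh1a1 was found in both, and mural cells of cluster 10 had little of any of them. Between cluster 5 and the other fibroblast clusters, 7 of the 9 members had enough reads to be tested and 3 were called, at an adjusted p under 0.05 and at least 4-fold. Aldh1a2 and Rbp4 were the called members that were higher, where 0.343% of the 13988 tested genes were called higher. Aldh1a3 was the called member that was lower, where 0.536% were called lower. Over all genes the median log2 fold change was −0.69 in this comparison, and with the median gene set to 0 the 3 calls remained. The higher and lower calls were 48 and 75 genes, which became 97 and 44 with the median gene set to 0.

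**Figure D1:**
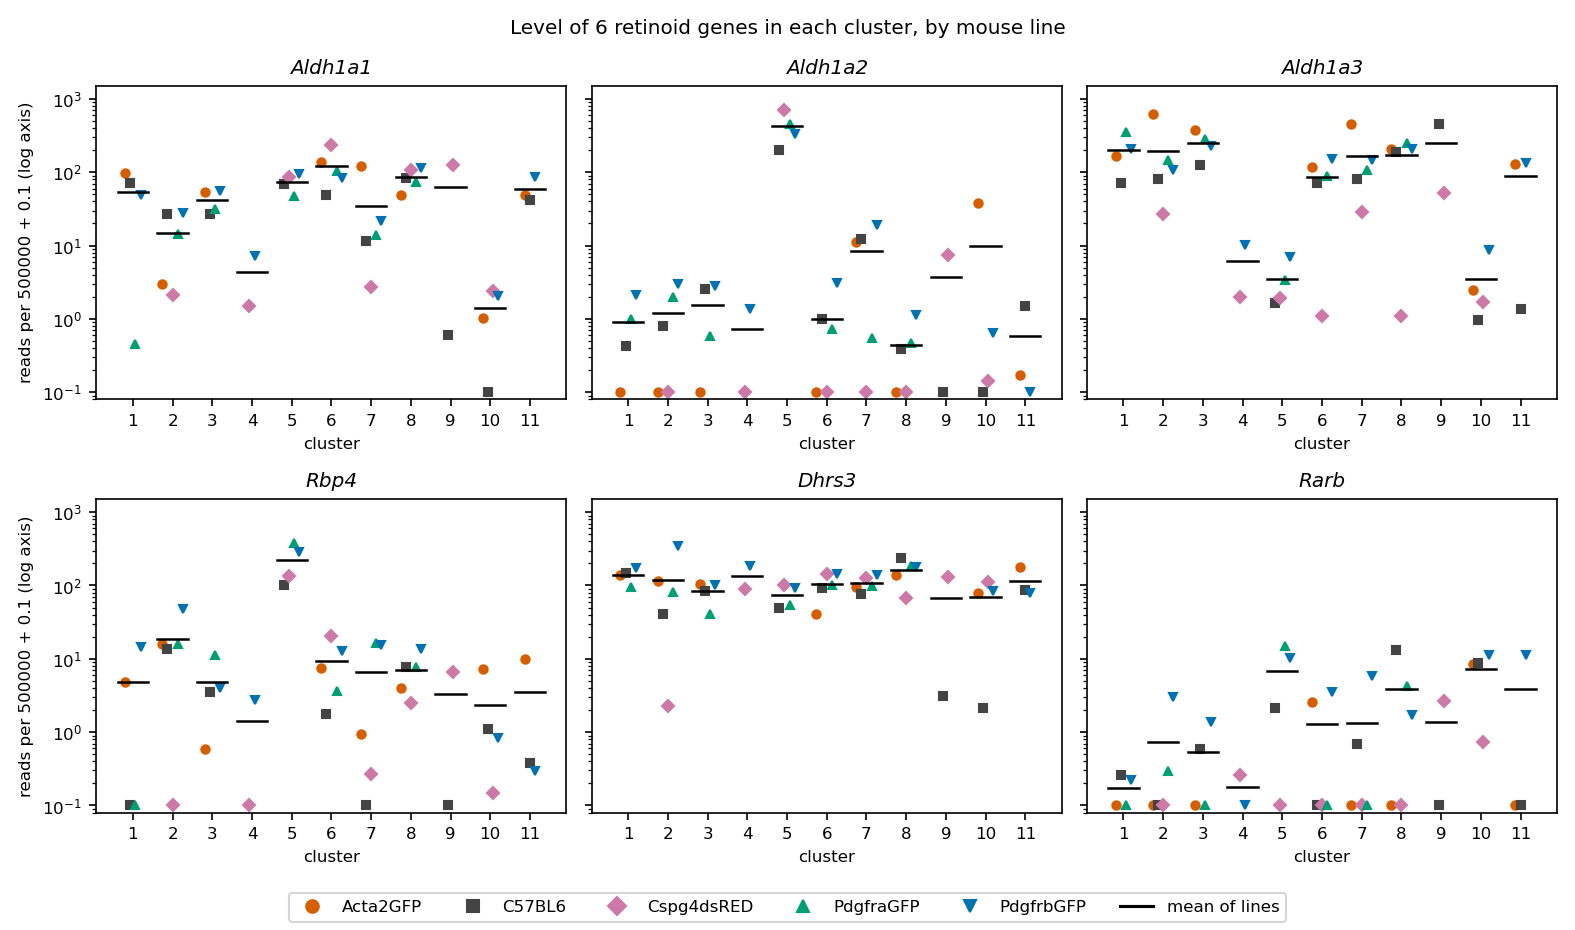
Level of 6 members (reads per 500000 endogenous reads of a cell plus 0.1, log axis) in each cluster, with a symbol for each mouse line of at least 3 cells and a bar for the mean over lines. Aldh1a2 and Rbp4 stand out in cluster 5, with means of 423 and 224.6, where Aldh1a3 is at 3.41.

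Aldh1a2 (Ensembl ENSMUSG00000013584, chr9:71215789-71296243, plus strand, GRCm38) had 17125 reads in all, in 23.7% of the cells. In cluster 5 its level was 201.3 (C57BL6), 706 (Cspg4dsRED), 453 (PdgfraGFP) and 330.7 (PdgfrbGFP), with a mean of 423 ± 214.8 (SD, n = 4 lines). The same 4 lines gave 3.78, 4.56, 0.782 and 5.51 in the other fibroblast clusters. The groups did not overlap, and every line was higher in cluster 5. The log2 fold change was 6.78 (SE 0.78), or 109.6-fold, with an adjusted p of 0.00206 (edgeR). Levels that did not overlap and were higher in cluster 5 were found for 2.18% of 13974 genes, Aldh1a2 and Rbp4 among them.

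Most cluster 5 cells carried Aldh1a2. For shares, each cell was thinned to 50000 reads and counted if it kept at least 10 reads of the gene, as these libraries carry no molecular identifiers and reads are not molecules. The intervals are exact 95% binomial intervals and cover counting error only. Aldh1a2 passed in 58 of 76 cluster 5 cells, or 76.3% (65.2 to 85.3%), and in 18 of 1272 cells of the other fibroblast clusters, or 1.42% (0.841 to 2.23%). By line the cluster 5 cells were 9 of 15 in C57BL6, 3 of 3 in Cspg4dsRED, 14 of 22 in PdgfraGFP and 32 of 36 in PdgfrbGFP. Each line thus held Aldh1a2 in most of its cluster 5 cells.

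**Figure D2:**
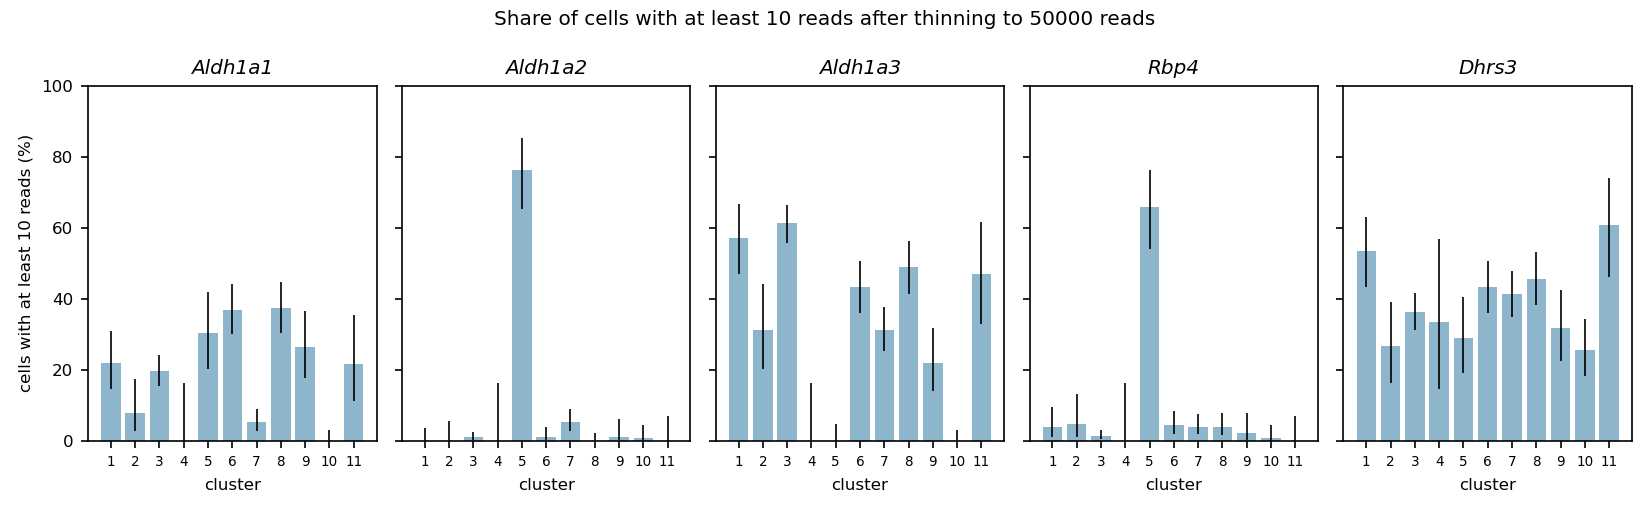
Percentage of cells with at least 10 reads of each of 5 members after thinning to 50000 reads, by cluster, as bars with exact 95% binomial intervals. In cluster 5, 76.3% of cells pass for Aldh1a2 and 65.8% for Rbp4, and none for Aldh1a3.

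The 18 Aldh1a2 cells of the other fibroblast clusters were not spread evenly. Cluster 7 held 12 of them, cluster 3 held 3, cluster 6 held 2 and cluster 9 held 1. Before thinning, the cluster 7 cells had a median of 125.5 Aldh1a2 reads.

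Low counts of Aldh1a2 followed the plate layout. Among cells outside cluster 5 with fewer than 10 reads, 33.2% of 720 had a read where a well of the same row or column held a cell with at least 100 reads. Where no such well existed, 2.76% of 652 had a read. For Rbp4 the corresponding shares were 41.2% of 675 cells and 7.28% of 646. The part of these wells in the levels near 1 outside cluster 5 was not tested.

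The promoter of Aldh1a2 is shown because the gene marked a cluster together with Rbp4. The 250 bases before the RefSeq start (chr9:71215539-71215788, plus strand, GRCm38.p6) held none of the retinoic acid receptor half-sites that were searched on either strand, which were the hexamer AGGTCA, the hexamer AGTTCA, the hexamer GGGTCA and the hexamer GGTTCA.
Aldh1a2: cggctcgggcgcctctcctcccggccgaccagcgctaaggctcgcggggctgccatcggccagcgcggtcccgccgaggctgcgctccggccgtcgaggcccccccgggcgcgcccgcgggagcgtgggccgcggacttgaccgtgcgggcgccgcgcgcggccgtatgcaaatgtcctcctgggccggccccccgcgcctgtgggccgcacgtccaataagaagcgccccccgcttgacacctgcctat

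Aldh1a3 (ENSMUSG00000015134, chr7:66390890-66427517, minus strand) had the most reads of the members, 113810, and was found in 77.7% of the cells. In cluster 5 its level was 1.56 (C57BL6), 1.85 (Cspg4dsRED), 3.26 (PdgfraGFP) and 6.97 (PdgfrbGFP). In the other fibroblast clusters these lines gave 113.6, 39.1, 160 and 186.99. The groups did not overlap, and every line was lower in cluster 5. The log2 fold change was −5.55 (SE 0.67), a 46.7-fold lower level, with an adjusted p of 0.00245. Levels that did not overlap and were lower in cluster 5 were found for 1215 of 13974 genes, or 8.69%, Aldh1a3 and Cyp26b1 among them. The gene passed in 575 of 1272 other fibroblasts (45.2%) and in 0 of 76 cluster 5 cells, a count that allows up to 3.95%.

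Aldh1a1 (ENSMUSG00000053279, chr19:20492715-20643465, plus strand; 43643 reads, 62.7% of cells) showed no such split. Its level in cluster 5 was 68.8 (C57BL6), 86.8 (Cspg4dsRED), 48.01 (PdgfraGFP) and 94.4 (PdgfrbGFP). The other fibroblast clusters of those lines gave 33.9, 95.4, 46.1 and 62.04, so the groups overlapped. It differed by 0.07 on the log2 scale (adjusted p = 0.983), with a 95% interval of −1.20 to 1.34, so changes within this interval could not be told from none. It passed in 23 of 76 cluster 5 cells (30.3%) and in 21.9% of the other fibroblasts.

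**Figure D3:**
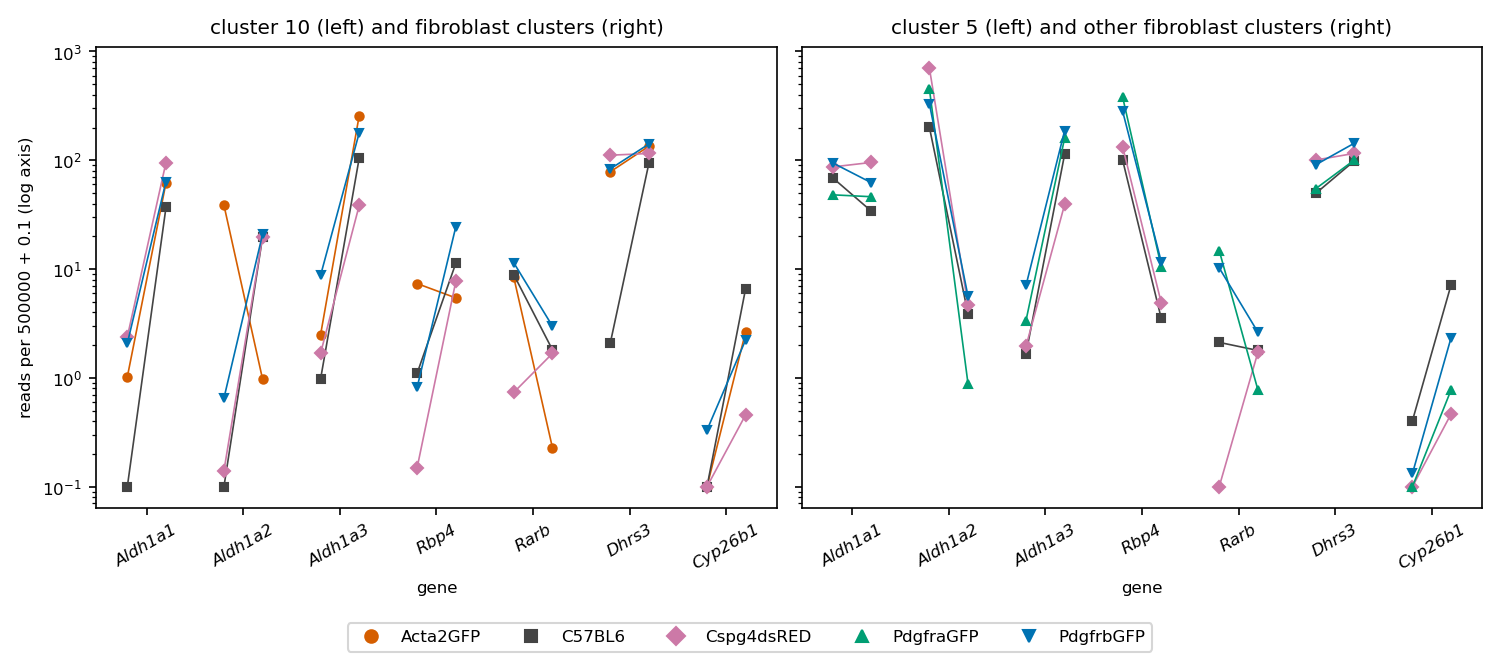
Level of 7 members (reads per 500000 endogenous reads of a cell plus 0.1, log axis) in cluster 10 and the fibroblast clusters (first panel) and in cluster 5 and the other fibroblast clusters (second panel), with a segment joining the values of each mouse line. From cluster 5 to the other fibroblasts, Aldh1a2 and Rbp4 fall and Aldh1a3 rises in all 4 lines, and Aldh1a1 rises in Cspg4dsRED and falls in the others.

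Per kilobase of exon, the make-up of the synthesis genes differed between these groups. Of the summed level per kilobase, Aldh1a2 took 90.9 ± 4.60% in cluster 5 (n = 4 lines), Aldh1a1 8.73 ± 4.43% and Aldh1a3 0.423 ± 0.337%. In the other fibroblast clusters Aldh1a2 took 3.51 ± 2.73% (n = 5 lines) and Aldh1a1 29.5 ± 19.8%, and Aldh1a3 made up the remainder. The exception among these lines was Cspg4dsRED, where Aldh1a1 took 64.8% and Aldh1a3 28.4%. Aldh1a1 had a larger mean share than Aldh1a3 in cluster 6 (55.05 ± 26.3%, n = 5) and cluster 11 (51.4 ± 34.3%, n = 3), but each order rests on 1 line of 3 cells and turned without it. Without Cspg4dsRED, where Aldh1a1 took 99.6%, the mean shares in cluster 6 were 43.9% for Aldh1a1 and 54.9% for Aldh1a3. Without C57BL6, where Aldh1a1 took 90.4%, those in cluster 11 were 31.9% and 68.1%. The sum was 202.5 ± 95.5 per kilobase in cluster 5 and 46.3 ± 16.1 in the other fibroblasts. It was 2.44 ± 2.46 in cluster 4 and 5.31 ± 8.33 in cluster 10. In cluster 10 the mean Aldh1a2 share was 26.97%, and 3.9% without Acta2GFP, where 1 cell held 130 Aldh1a2 reads.

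**Figure D4:**
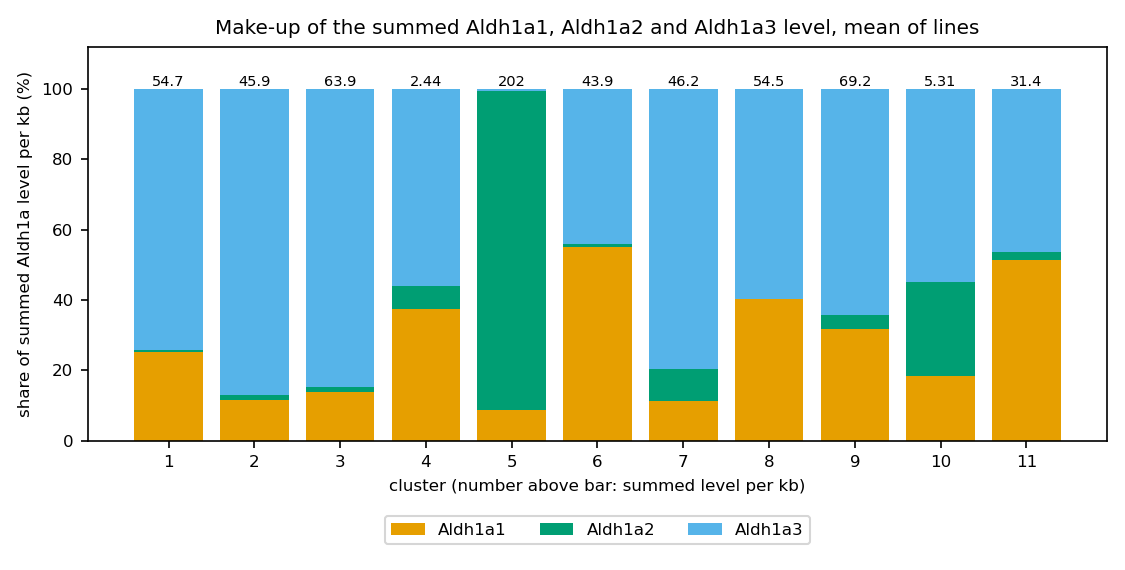
Percentage of the summed Aldh1a1, Aldh1a2 and Aldh1a3 level per kilobase of exon that each gene takes in each cluster, as the mean over mouse lines, with the summed level above each bar. Aldh1a2 takes 90.9% in cluster 5, and clusters 4 and 10 have summed levels of 2.44 and 5.31 per kilobase, so their shares rest on few reads.

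Within single cells the enzymes mostly came alone. In cluster 5, 49 of 76 cells had 1 of the 3 genes at 10 or more thinned reads, 16 had 2 and 11 had none. In the other fibroblast clusters 609 of 1272 cells had 1, 130 had 2, 1 had 3 and 532 had none. Aldh1a2 stood in 69.6% of the cluster 5 cells with Aldh1a1 and in 79.2% of those without it. Of the other fibroblasts, 44.4% of the cells with Aldh1a1 and 45.4% of those without it had Aldh1a3. The presence of Aldh1a1 thus went with little difference in the share of Aldh1a3 cells.

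Among the 9 other fibroblast clusters the synthesis genes varied, but none passed the test across all genes. In a test of any difference among these clusters, 0 of 8 tested members were called, where 2.54% of 14776 genes were, and 5 members had an unadjusted p under 0.05, where 15.1% of all genes did. The adjusted p was 0.179 for Aldh1a1, 0.155 for Aldh1a2 and 0.189 for Aldh1a3. Comparing each cluster with the mean of the other 8, 0 of 72 pairs of member and cluster were called, where 0.595% of 132984 pairs were, and 11 had an unadjusted p under 0.05, where 8.16% of all pairs did. Other settings each called 1 member in the first of these tests, among them Aldh1a1 with DESeq2 (adjusted p = 0.0173) and with at least 10 cells in a sum (0.0326), Aldh1a2 with sums per plate and line (0.0248) and Aldh1a3 after thinning (0.0248). DESeq2 called 4 pairs in the second. Aldh1a2 in cluster 7 was called higher without Cspg4dsRED, with a log2 fold change of 5.15 (adjusted p = 0.0280) in edgeR.

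For Aldh1a1 the highest levels were those of cluster 6 (122.5 ± 72.01, n = 5) and cluster 8 (85.2 ± 26.4, n = 5), followed by cluster 5 (74.5 ± 20.7, n = 4). Clusters 9, 11, 1, 3 and 7 followed at 62.6, 59.2, 54.2, 41.7 and 34.3, then cluster 2 at 14.8 ± 12.4 and cluster 4 at 4.23 ± 3.99. The places of clusters 9 and 7 each rest on 1 line. Cluster 9 was at 124.8 in its 85 Cspg4dsRED cells, above the mean of cluster 6, and at 0.494 in its 3 C57BL6 cells. Cluster 7 was at 12.5 without its 9 Acta2GFP cells. No neighbours in this order differed by more than the larger of their SDs. Cluster 6 was above the mean of the other 8 by 2.23 on the log2 scale (SE 0.64, adjusted p = 0.241). Cells with at least 10 reads made up 36.9% of cluster 6 cells, 37.4% of cluster 8 cells and 5.26% of cluster 7 cells.

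For Aldh1a3 cluster 9 (253.6 ± 284.9, n = 2) and cluster 3 (252.9 ± 105.6, n = 4) came first, followed by clusters 1, 2, 8 and 7 between 200.2 and 164.1, and by clusters 11 and 6 at 88.5 and 86.2. The place of cluster 9 rests on 3 C57BL6 cells at 455, as its 85 Cspg4dsRED cells were at 52.2, below the mean of cluster 6. Clusters 2 and 7 hold their places through Acta2GFP, at 618.3 in 3 cells and 457.1 in 9 cells, and were at 90.4 and 90.9 without it, close to clusters 11 and 6. Cluster 4 then fell to 6.03 ± 5.83 (n = 2), close to cluster 5 (3.41 ± 2.48) and cluster 10 (3.37 ± 3.57). The step between clusters 6 and 4 was the only one in the order larger than the larger SD of the neighbours. Cluster 4 was below the mean of the other 8 by a log2 fold change of −4.01 (SE 1.24, adjusted p = 0.179). In this cluster 0 of 21 cells kept 10 reads of any synthesis gene, a count that allows up to 14.3%.

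Aldh1a2 outside cluster 5 was at most 9.78. Cluster 10 reached that mean through 1 Acta2GFP cell with 130 reads, as its lines were at 38.5 (Acta2GFP), 0 (C57BL6), 0.0402 (Cspg4dsRED) and 0.551 (PdgfrbGFP). Cluster 7 followed at 8.46 ± 8.10 (n = 5), where 12 cells (5.26%) kept at least 10 reads. The remaining clusters were between 0.341 and 3.62. The step from cluster 5 to the next cluster was the only one larger than the SDs.

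Aldh1a3 also differed by mouse line within a cluster. It was lowest in Cspg4dsRED in 6 of the 8 clusters that held at least 3 cells of that line, and in 2 of these 6 there was only 1 other line. In C57BL6 it was lowest in 5 of 10 clusters. In cluster 8 the level was 1.01 in Cspg4dsRED (14 cells), 207.5 in Acta2GFP, 189.6 in C57BL6, 252.9 in PdgfraGFP and 206.4 in PdgfrbGFP, so Cspg4dsRED lay apart from the others. On the plate that Cspg4dsRED shared with PdgfraGFP, the 9 Cspg4dsRED cells of the other fibroblast clusters were at 42.01 and the PdgfraGFP cells at 160. Over the other fibroblast clusters, 13.6% of the Cspg4dsRED cells and 59.8% of the Acta2GFP cells had at least 10 reads. For Aldh1a1, Cspg4dsRED was lowest in 3 and highest in 3 of its 8 clusters. Over the other fibroblast clusters its Aldh1a1 level of 95.4 was the highest of the lines, and 85 of those cells belonged to cluster 9.

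Aldh1a3 also differed between plates of 1 line, which was not tested. PdgfrbGFP cells of the other fibroblast clusters were at 281.9 on the plate shared with Acta2GFP, where Acta2GFP itself was at 257.2. On the plates with PdgfrbGFP alone they were at 175.8 and 136.8. In cluster 3 the same plates gave 342.7 for PdgfrbGFP and 376 for Acta2GFP on the shared plate, and 167.8 and 156.8 on the others. These plates also differed in depth. Median total reads per cell were 109965 for PdgfrbGFP and 142819 for Acta2GFP on the shared plate. They were 267313 and 384099 for PdgfrbGFP on the others. Line, plate, preparation and depth can thus be told apart only in part.

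Rbp4, the retinol carrier (ENSMUSG00000024990, chr19:38116629-38125281, minus strand; 18936 reads, 31.9% of cells), was the other member of cluster 5. Its level there was 100.5 (C57BL6), 133.3 (Cspg4dsRED), 382 (PdgfraGFP) and 282.97 (PdgfrbGFP), with a mean of 224.6 ± 131.4 (n = 4). The other fibroblast clusters of these lines gave 3.42, 4.80, 10.4 and 11.6. Every line was higher in cluster 5 and the groups did not overlap. The log2 fold change was 4.75 (SE 0.50), or 26.9-fold, with an adjusted p of 0.00136. It passed in 50 of 76 cluster 5 cells, or 65.8% (54.01 to 76.29%), and in 37 of 1272 other fibroblasts, or 2.91%, which was 1.65% without PdgfrbGFP.

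Aldh1a2 and Rbp4 were counted together in single cells of cluster 5. Of its 76 cells 40 had both at 10 or more reads and 8 had neither, where their single shares would give 38.2 cells with both if the genes were independent. Rbp4 stood in 68.97% of the cells with Aldh1a2 and in 55.6% of those without. In the other fibroblast clusters, where 18 cells had Aldh1a2 and 37 had Rbp4, 3 had both, and independence would give 0.524. Per cell, Rbp4 was thus present in most cluster 5 cells whether or not Aldh1a2 was.

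Outside cluster 5 the order of Rbp4 held no step larger than the SDs, from cluster 2 (18.6 ± 17.6, n = 5) to cluster 4 (1.30 ± 1.84, n = 2), and cluster 2 was at 11.3 without PdgfrbGFP. The 37 cells of the other fibroblast clusters with at least 10 reads came from 7 clusters, with 9 in cluster 7 and 8 in cluster 6. The adjusted p for any difference among the other fibroblast clusters was 1.00.

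Markers of other cell types that could carry these genes were examined in cluster 5. The 5 mesothelial markers summed to 0 to 12.1 over its lines, with 4 of 5 under a level of 1. The 11 urothelial markers summed to 0.908 to 148.2, with 1 of 11 at 0 and 5 of 11 under 1, against 1.86 to 92.1 in the other fibroblast clusters. The highest of these sums in cluster 5 was thus above that of every line in the other fibroblast clusters. Per the study's methods, the sort enriched cells by PDGFRα, PDGFRβ or a reporter, and cells with neither transcript were removed. The part of urothelial RNA in the cluster 5 levels was not tested.

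The Rbp4 promoter is shown for comparison with that of Aldh1a2. The 250 bases before its start (chr19:38125322-38125571, minus strand, GRCm38.p6) held 1 half-site, on the other strand at positions −53 to −48 from the start, given in capitals. The window of another RefSeq start of Rbp4 (chr19:38124812-38125061) held none. A half-site was found in 12694 of 32851 such windows of all genes, or 38.6%, so the match is no particular feature.
Rbp4: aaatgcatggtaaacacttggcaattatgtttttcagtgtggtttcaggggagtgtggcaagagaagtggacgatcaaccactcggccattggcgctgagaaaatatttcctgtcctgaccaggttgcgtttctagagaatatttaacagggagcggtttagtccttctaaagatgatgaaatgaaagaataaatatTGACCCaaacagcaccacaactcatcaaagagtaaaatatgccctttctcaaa

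Crabp1 and Crabp2, the cytoplasmic binding proteins, were nearly absent. Crabp1 (ENSMUSG00000032291, chr9:54764748-54773110, plus strand) had 2 reads in 1 cell of cluster 7 and could not be tested. In the thinned data 0 of 1473 cells had 10 reads, a count that allows up to 0.204%. Crabp2 (ENSMUSG00000004885, chr3:87948666-87953376, plus strand) had reads in 4 cells, and 1 cell of cluster 4 held 91 reads. That cell set its level in Cspg4dsRED cells of cluster 4 to 26.3, while PdgfrbGFP cells of cluster 4 were at 0. The adjusted p of Crabp2 for any difference among the other fibroblast clusters was 0.143. It was 0.0310 without the filter on low counts and 0.00426 without the block of lines. In cluster 8 Crabp2 was called higher under these 2 settings, with log2 fold changes of 4.55 and 5.49, and in cluster 4 without the block, with 10.27. With reads in 4 cells, these fits rest on few cells.

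Rarb, the receptor (ENSMUSG00000017491, chr14:16430839-16819156, minus strand), was rare. It had 2487 reads in 9.13% of the cells, and its locus overlaps Top2b on the opposite strand, which had 20074 reads. Whether strand was used in counting is not given in the sources used here, so reads of the overlap cannot be assigned with certainty. Its highest levels were 7.26 ± 4.61 in cluster 10 (n = 4) and 6.72 ± 6.90 in cluster 5 (n = 4), and no step of the order was larger than the SDs. In cluster 5 the lines were at 2.02 (C57BL6), 0 (Cspg4dsRED), 14.7 (PdgfraGFP) and 10.2 (PdgfrbGFP), against 1.69, 1.61, 0.678 and 2.53 in the other fibroblast clusters, so the groups overlapped. The fit gave a log2 fold change of 0.88 (SE 1.78, adjusted p = 0.927). Only 15 of 1473 cells kept 10 reads.

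The promoter of Rarb carries the textbook retinoic acid response element and is shown for that reason. The 250 bases before the start (chr14:16575477-16575726, minus strand, GRCm38.p6) held a direct repeat of half-sites 5 bases apart, at positions −53 to −37 and in capitals. Rarb was the only member with this repeat among the 7 members with a RefSeq window, and 29 of 32851 windows (0.0883%) held it. Half-sites were found in windows of 3 of these 7 members. Repeats 2 bases or 1 base apart, which were found in 0.174% and 0.164% of all windows, were found in no member. A match is a description of letters and says nothing of binding.
Rarb: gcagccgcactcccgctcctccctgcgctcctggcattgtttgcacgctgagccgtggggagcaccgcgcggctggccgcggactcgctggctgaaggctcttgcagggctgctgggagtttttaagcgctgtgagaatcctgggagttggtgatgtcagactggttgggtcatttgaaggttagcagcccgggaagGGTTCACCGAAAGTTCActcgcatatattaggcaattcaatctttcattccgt

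Dhrs3, the retinaldehyde reductase (ENSMUSG00000066026, chr4:144892827-144928209, plus strand), was found in every cluster. It had 98114 reads and was found in 81.3% of the cells. Its level ran from 161.99 ± 63.4 in cluster 8 (n = 5) to 67.7 ± 91.5 in cluster 9 (n = 2), and no step of the order was larger than the SDs. The last place rests on the 3 C57BL6 cells of cluster 9, at 3.03, as its Cspg4dsRED cells were at 132.4. Cluster 2 was at 117.5, and at 60.6 without PdgfrbGFP. In cluster 5 the lines were at 49.6 (C57BL6), 100.4 (Cspg4dsRED), 54.8 (PdgfraGFP) and 90.9 (PdgfrbGFP), against 98.9, 115.7, 100.6 and 143.6 in the other fibroblast clusters. Each line was lower in cluster 5, but the groups overlapped. The log2 fold change was −0.66 (SE 0.42, 95% interval −1.60 to 0.27, adjusted p = 0.707), near the median of all genes, and it was 0.03 with the median gene set to 0. The share of cells with at least 10 reads was 28.9% in cluster 5 and 41.04% in the other fibroblasts, with cluster 11 highest at 60.8% and cluster 10 lowest at 25.6%. Without PdgfrbGFP the cluster 5 share was 15% and that of the other fibroblasts 34.2%.

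Cyp26b1, the degrading enzyme (ENSMUSG00000063415, chr6:84571414-84593908, minus strand), had 1721 reads in 7.64% of the cells. In cluster 5 it had 3 reads, with levels of 0.304 in C57BL6, 0.0322 in PdgfrbGFP and 0 in Cspg4dsRED and PdgfraGFP. In the other fibroblast clusters the levels were 7.07 (C57BL6), 0.366 (Cspg4dsRED), 0.675 (PdgfraGFP) and 2.24 (PdgfrbGFP). The groups did not overlap, but the difference did not pass the test, with a log2 fold change of −5.25 (SE 1.47, adjusted p = 0.141). Its highest cluster means, 6.45, 6.21, 5.14 and 4.55 in clusters 4, 1, 2 and 3, had SDs above each mean. Each rests on 1 line. Without C57BL6 clusters 1 and 3 were at 2.24 and 1.87, and without Acta2GFP cluster 2 was at 1.10. Cluster 4 was at 12.9 in PdgfrbGFP and at 0 in Cspg4dsRED. At least 10 reads were left in 12 of 1473 cells, of which 6 were in cluster 3, 4 in cluster 7 and 2 in cluster 1.

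Mural cells of cluster 10 were lower than fibroblasts in the synthesis genes Aldh1a1 and Aldh1a3. Against all fibroblast clusters, in the 4 lines with cells of both kinds, 6 of the 9 members could be tested and Aldh1a1 and Aldh1a3 were called, both lower, where 6.06% of 13861 genes were called lower. The median log2 fold change over all genes was −0.81, and the higher and lower calls were 2.28% and 6.06% of the genes, which became 3.32% and 2.47% with the median gene set to 0. The 2 member calls remained there. Levels of the lines did not overlap and were lower for both genes, as for 16.2% of 13855 genes.

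Aldh1a1 in cluster 10 was at 0.921 in Acta2GFP, 0 in C57BL6, 2.28 in Cspg4dsRED and 1.98 in PdgfrbGFP. The fibroblast clusters of these lines gave 61.8, 36.7, 95.3 and 63.6. The log2 fold change was −5.71 (SE 1.17), a 52.4-fold lower level, with an adjusted p of 0.00415. Without Cspg4dsRED the adjusted p was 0.0537. Aldh1a3 was at 2.38, 0.873, 1.58 and 8.64 in the same lines, against 257.2, 104.6, 38.3 and 178.5 in the fibroblast clusters. Its log2 fold change was −5.53 (SE 0.89), a 46.1-fold lower level, with an adjusted p of 0.000471. No cell of cluster 10 kept 10 reads of either gene, a count of 0 that allows up to 2.4%.

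The remaining members did not pass in this comparison. Aldh1a2 had a log2 fold change of −5.08 (SE 2.53, adjusted p = 0.278) with the single Acta2GFP cell included, and −6.78 (adjusted p = 0.0571) without Acta2GFP. That cell kept at least 10 reads of Aldh1a2 and of Rbp4, from 130 and 24 before thinning. It kept 10 reads of neither Cd34 nor Tnc. Rbp4 was at 2.26 ± 3.35 in cluster 10, with a log2 fold change of −4.06 (SE 1.82, adjusted p = 0.212). DESeq2 and sums per plate and line called both genes lower. Dhrs3 was at 78.4 (Acta2GFP), 2.01 (C57BL6, 3 cells), 111.3 (Cspg4dsRED) and 83.4 (PdgfrbGFP), with a log2 fold change of −1.47 (SE 0.82, adjusted p = 0.353). Rarb had a log2 fold change of 1.72 (SE 1.84, adjusted p = 0.702).

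**Figure D5:**
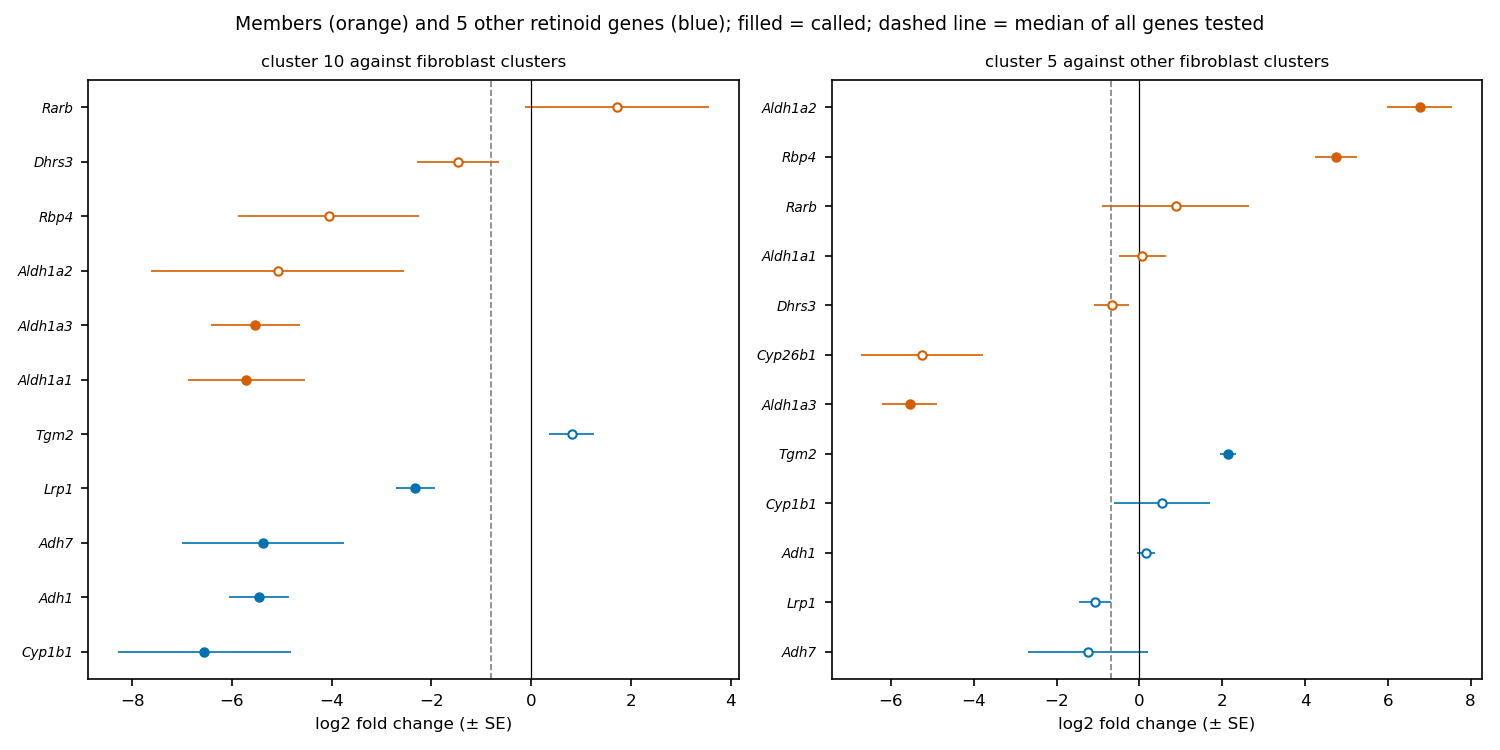
Log2 fold change ± SE of the tested members (orange) and 5 other retinoid genes that were called in either comparison (blue) in cluster 10 against the fibroblast clusters (first panel) and in cluster 5 against the other fibroblast clusters (second panel), with called genes filled and the median of all tested genes dashed. Aldh1a2 (6.78) and Rbp4 (4.75) lie to the right and Aldh1a3 (−5.55) to the left in cluster 5, and Aldh1a1 (−5.71) and Aldh1a3 (−5.53) to the left in cluster 10.

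The rest of the retinoid pathway was followed with a list of 53 genes for receptors, binding proteins, retinol uptake, oxidation, degradation and response. In cluster 10, 28 of them were tested and 5 were called, all lower, where 8.34% of all genes were called in either direction and 6.06% lower, and the list's median log2 fold change was −1.91, beside −0.81 over all genes. Adh1, a retinol dehydrogenase of the alcohol dehydrogenase family, was at 12.5 ± 9.41 (n = 4) in cluster 10 and 525 ± 105.9 (n = 5) in the fibroblast clusters, a log2 fold change of −5.45 (SE 0.60, adjusted p = 6.78e-06). Lrp1, a large endocytic receptor, fell by 2.32 on the log2 scale (SE 0.40), but by 1.51 with the median gene set to 0, which is under 4-fold. Adh7, another alcohol dehydrogenase, and Cyp1b1, a cytochrome that can oxidise retinoids, were called lower, but lost the call in 7 and 6 of 13 alternatives.

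In cluster 5, 28 genes of the list were tested and 1 was called, where 0.879% of all genes were, and the list's median was −0.81, beside −0.69 over all genes. The called gene was Tgm2, a transglutaminase known as a retinoic acid target, at 1408 ± 262.5 (n = 4) in cluster 5 and 297.9 ± 66.3 (n = 5) in the other fibroblast clusters. Its log2 fold change was 2.14 (SE 0.19, adjusted p = 0.000714), and it was 2.00 after thinning, just under 4-fold. Tgm2 overlaps Rprd1b on the opposite strand, which had 46908 reads. Adh1, at 638 ± 55.8 in cluster 5, was not called.

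Among the other fibroblast clusters, 29 genes of the list were tested and 3 were called, among them Adh1 (adjusted p = 0.0387) and Stra6 (adjusted p = 0.00257), where 2.54% of all genes were. Adh1 lost this call in 7 of 13 alternatives, with an adjusted p of 0.648 without PdgfrbGFP, 0.160 without C57BL6 and 0.104 without Acta2GFP. Stra6 lost it in 5, among them without Cspg4dsRED (0.0695), without PdgfrbGFP (0.115) and with cluster 4 left out (0.0911). In tests of single clusters 5 pairs of gene and cluster were called, 4 of them in cluster 2. Over all genes 0.595% of all pairs were called, and 2.29% of the genes in cluster 2. Clusters 2 and 4 were the shallowest, with median total reads per cell of 113371 and 110330, where that of all cells was 214893. Stra6, the receptor that takes up retinol from its carrier, was higher in cluster 4, where its level was 612 in Cspg4dsRED and 39.7 in PdgfrbGFP, and its mean elsewhere was at most 12.8. Its log2 fold change was 10.65, and without Cspg4dsRED, which gave 17 of the cells, it was 10.29 with an adjusted p of 0.0892. Adh1 was called higher in cluster 2, at 691 ± 242.2, with a log2 fold change of 1.18 against the mean of the other 8 clusters. It lost the call in 4 of 13 alternatives, among them without Acta2GFP (0.72, adjusted p = 0.137) and without PdgfrbGFP (0.81, adjusted p = 0.278). Rarg, a receptor, was called lower and Rarres2, a chemoattractant, higher in cluster 2, and these 2 are named after their values were seen. Rarg, with a log2 fold change of −2.83, was at −2.49 without Acta2GFP (adjusted p = 0.115), −2.68 without C57BL6 (0.166) and −3.65 without PdgfrbGFP (0.0956), and it lost its call in 4 alternatives. Rarres2 lost it in 5, and its log2 fold change of 1.21 was 0.53 without Acta2GFP (adjusted p = 0.426), 1.47 without C57BL6 (0.0864) and 1.04 without PdgfrbGFP (0.278). Adh1 overlaps Gm16559 and Rarres2 overlaps Lrrc61 on the opposite strand, which had 49382 and 94455 reads.

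The genes most like each member over the 43 sums of cluster and line were listed by Pearson's r of log2 levels, over 11576 genes. The sums share lines, plates and clusters, so r is a description. Aldh1a2 was closest to Notum (0.90), Notumos (0.89) and Gm26903 (0.88), and Aldh1a3 to AW551984 (0.83), Il33 (0.82) and Gm16083 (0.78). Rbp4 was closest to Car3 (0.75), Tnc (0.75) and Mab21l2 (0.72). For Aldh1a1 the genes were Irf8 (0.80), Man2b2 (0.79) and Mfap2 (0.77), and for Dhrs3 Saraf (0.82), Arl1 (0.81) and Laptm4a (0.80). Crabp2, Rarb and Cyp26b1, whose reads come from few cells, were closest to Sfrp5 (0.84), Emb (0.78) and Itgb4 (0.75), to Cap2 (0.67), Fbxo33 (0.65) and Itga3 (0.64), and to Vps45 (0.65), Syce2 (0.59) and Reep2 (0.58). Among members, r was 0.67 for Aldh1a2 with Rbp4 and −0.34 for Aldh1a2 with Aldh1a3.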

How the data were processed

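Single-cell libraries of dissociated bladder were made by the Smart-seq2 protocol, without molecular identifiers. The authors demultiplexed with bcl2fastq, trimmed adapters with trim galore, mapped to GRCm38 (mm10) with TopHat2 and Bowtie and counted reads per gene with featureCounts; the annotation release and strand setting are not given in the sources used here. The deposited values are raw counts of reads per gene and cell, used as they stand, and 0 columns lacked a sample. The 92 spike-in rows were left out of levels, sums and thinning, and total reads per cell include them.

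Counts were summed over the cells of a cluster group and line (at least 3 cells) and tested with edgeR 4.0.16 in R 4.3.3 (TMM scaling, filterByExpr, quasi-likelihood F test, line as block, Benjamini-Hochberg adjustment over all genes tested). Calls needed an adjusted p under 0.05 and at least 4-fold in the tests of clusters 10 and 5, an adjusted p under 0.05 in the test of any difference, and at least 2-fold besides for single clusters. The lines pair the sums because each line gave cells to both sides. Whether a line is 1 animal is not given in the sources used here. Levels, shares and figures were made with Python 3.11.15, numpy 2.4.6, scipy 1.17.1, pandas 2.3.3 and matplotlib 3.10.9. Cells were thinned to 50000 endogenous reads for shares, which left out 6 cells with fewer. Promoter windows came from RefSeq (GRCm38.p6), with entries for 7 of the 9 members.

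Genes were named by rule: all 9 members, the called genes of the 53-gene list (1 of them is not reported here) and, for each member with a cluster mean level of at least 5, the 3 genes most like it among those with a mean of at least 5 CPM. The members and lists were chosen with earlier results of these data known. Alternatives were median-of-ratios scaling, centring on the median gene, no filter, DESeq2 1.42.0, sums per plate and line, at least 10 cells in a sum, thinned cells, no block and leaving out each line. Leaving out cluster 4 was added after seeing the data. Intervals of fold changes used the t quantile of the F test's degrees of freedom.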

Additional observations from a re-analysis of the deposited data

Results flagged for a closer look

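By Dixon's criterion, 42 groups of 4 or 5 lines were examined for a line far from the others. They were single clusters and the pooled fibroblast clusters. In 6 groups, all of them single clusters, such a line was found. The groups share lines and cells and some values rest on 3 cells, so no chance rate was set beside this count. In 5 of the 6 the line was Acta2GFP, high in clusters where it had 3 to 12 cells. Aldh1a1 in cluster 7 was at 121.7 in Acta2GFP (9 cells), and the next line was at 21.8. The median of those 9 cells was 3.41, and their summed reads gave a level of 58.02. Aldh1a3 in the same 9 cells was at 457, next to 147.1 in PdgfrbGFP. Aldh1a3 in cluster 2 was at 618 in Acta2GFP (3 cells), next to 146.2 in PdgfraGFP. Cyp26b1 in those 3 cells was at 21.3, from 8 reads in all, next to 2.32. Aldh1a2 in cluster 10 was at 38.5 in Acta2GFP (12 cells), where 1 cell held 130 reads, and the next line was at 0.551. Aldh1a3 in cluster 8 was at 1.01 in Cspg4dsRED (14 cells), and the next line was at 189.6.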

How the results depend on the processing

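Aldh1a2, Rbp4 and Aldh1a3 kept their calls in cluster 5 under all 13 alternatives, with log2 fold changes of 6.02 to 7.47, 4.51 to 5.44 and −5.80 to −4.85. Aldh1a3 kept its call in cluster 10 under all 13 (−6.11 to −4.73), and Aldh1a1 (−6.27 to −4.91) lost its call without Cspg4dsRED. Over the alternatives to the members' log2 fold changes, 280 values kept direction and call, 17 gained a call, 1 lost it and 8 reversed. The reversed values belonged to fold changes that were not called. In cluster 5, Aldh1a1 turned to −0.061 without the filter, and ran from −0.30 (without C57BL6) to 0.36 with a line left out, at −0.07 without PdgfrbGFP. Dhrs3 turned to 0.032 with the median gene at 0. Rarb ran from −0.20 (without PdgfraGFP) to 1.90, at −0.06 without PdgfrbGFP. Among single clusters, Crabp2 in cluster 4 turned to −0.31 and Aldh1a2 in cluster 9 to −7.75 without Cspg4dsRED, and with another line left out they reached 12.13 and 12.18.

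The share of tested genes that were called moved more than the directions. In cluster 10 it was 8.34%, and it was 5.07% without the filter, 20.9% with DESeq2, 12.6% with sums per plate and line and 3.09 to 6.29% with a line left out, lowest without Cspg4dsRED, PdgfrbGFP and Acta2GFP. The called members there were 2, but 4 with DESeq2 and with sums per plate and line, and 1 to 2 with a line left out. In cluster 5 it was 0.879%, and it was 0.697% without the filter, 9.64% with DESeq2, 4.52% with sums per plate and line, 1.33% with at least 10 cells, 1.99% after thinning and 0.609 to 1.33% with a line left out, highest without Cspg4dsRED. DESeq2 and sums per plate and line also called Cyp26b1 there. The test of any difference called 2.54%, and it called 1.68% without the filter, 6.08% with DESeq2, 6.33% with sums per plate and line, 1.15% with at least 10 cells, 1.86% after thinning and 0.324 to 1.77% with a line left out, lowest without PdgfrbGFP, C57BL6 and Acta2GFP. It called 1 member in place of 0 in each of these but with a line left out. Single clusters gave 0.595% of pairs, and 3.91% with DESeq2, 1.05% with sums per plate and line, 0.437% after thinning and 0.139 to 0.903% with a line left out, lowest without PdgfrbGFP and C57BL6 and highest without Cspg4dsRED. Called pairs of a member and a cluster, 0 at first, were 1 without the filter, 4 with DESeq2, 1 with at least 10 cells, 1 after thinning and 0 to 2 with a line left out. The cause was not tested.

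Without the replicate block of lines, the share called was 10.6% in cluster 10, 2.43% in cluster 5, 7.25% in the test of any difference and 2.71% of pairs in single clusters, and the members called were 2, 3, 1 and 4. Centring on the median gene was run for clusters 10 and 5 only. Leaving out cluster 4, chosen after seeing the data, gave 8.20% (cluster 10), 0.893% (cluster 5), 2.67% and 0.686% of pairs, with 2, 3, 0 and 0 members called. For 36 shares of cells, 51 alternatives gave a value outside the share's interval, most by counting cells at 1 or 3 reads or without thinning. At 1 read, Aldh1a3 was found in 34.2% of cluster 5 cells in place of 0, and Aldh1a2 in 8.25% of the other fibroblasts in place of 1.42%. Crabp1, Crabp2, Rarb and Cyp26b1 had reads in under 10% of the cells, which limits what their levels can show.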
